A study of Homo sapiens with 9 samples.

Results

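Lowering topoisomerase II beta was set against a control vector in LNCaP, a cell line established from a human prostate cancer, which responds to androgen. The 4 arrays described here, of 9 in the series, each measured 1 sample. LNCaP cells were transfected with a vector that made green fluorescent protein and either a short hairpin RNA against TOP2B (sh-TOP2B) or a control hairpin (sh-control), kept for 48 h in 5% charcoal-stripped serum to remove androgen, and then given vehicle or 100 nM dihydrotestosterone (DHT), the active androgen, for 16 h. Fluorescent cells were collected by sorting, so all 4 samples are transfected, androgen-deprived and sorted. The knockdown was compared with its control once in vehicle and once with DHT, and these 2 pairs, which share no array, were treated as 2 replicates. The remaining 5 arrays came from LNCaP cells that were neither transfected nor sorted and are used only where the text says so: 1 of cells grown in full serum without deprivation, and 4 of cells deprived for 48 h and given vehicle, 100 nM DHT for 16 h, or the same DHT after 2 h with 100 µM etoposide or 100 µM merbarone. Nothing in the labels says that the arrays came from separate cultures, so the p-values reflect the spread among these samples alone, which may be technical. For each gene that spread is mostly borrowed from other genes of similar level. The labels name the target of the hairpin and not its sequence, and what belongs to the loss of TOP2B and what belongs to the hairpin itself cannot be told apart.

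Topoisomerase II beta cuts both strands of one DNA duplex, passes another through the gap and reseals the cut, which relieves tangles and twists that arise when genes are transcribed. Unlike its relative topoisomerase II alpha (TOP2A), it is present in cells that do not divide, and it is known for its part in the induction of genes by hormones, including androgen. The largest group of genes that moved here belongs to another pathway. Cells that sense double-stranded RNA or misplaced DNA activate the transcription factors IRF3 and NF-kB, which switch on interferon beta and a first set of antiviral genes, and secreted interferon then acts through receptors, Janus kinases and STAT factors to induce many more.

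Values are log2 RMA values, in which each step of 1 is a doubling, and differences are sh-TOP2B minus sh-control. Array medians were between 5.68 and 5.72 on these 4 arrays. A gene under the median of an array is called dim there, and its difference is written "at least", computed with the dim value replaced by the median. Called means an adjusted p under 0.05 in a limma fit over 11865 genes with treatment as a block. Differences are given with the standard error (SE) of that fit. The fit has 1 residual and 12.43 prior degrees of freedom, so the SE rests mostly on the spread of genes of similar level. It can be smaller than the gap between a gene's own 2 pairs would give. Where control and knockdown levels are said not to overlap, most of the genes were picked for a large or called difference, which favours this. The share of all genes without overlap was not counted, so a lack of overlap is a description only. RNA quality read from control probe sets moved with the knockdown and also with DHT: the 3′ minus 5′ difference for beta-actin was 3.09 in sh-control and 2.69 in sh-TOP2B cells in vehicle, and 2.67 and 2.38 with DHT. For GAPDH it was 0.64 and 0.52 in vehicle, and 0.52 in both with DHT. On the 5 arrays of untransfected cells it lay between 0.38 and 0.70 for beta-actin and between 0.17 and 0.25 for GAPDH. Fits over more than these 4 arrays mix both ranges. The part of RNA quality in the results below was not tested. Of 10 markers of LNCaP and luminal prostate cells that a probe set names, 8 or 9 were above the array median on every array, and TRPM8 was dim on all. Of the markers of other cell types that a probe set names, 2 of 5 for basal epithelium, 3 or 4 of 10 for fibroblasts and smooth muscle, 1 of 8 for leukocytes, 1 of 6 for endothelium and 2 or 3 of 5 for the kidney epithelium of packaging lines were above the median on each array, and among all of these 0 were called higher and 1, ITGA6 of basal cells, was called lower. The epithelial keratins KRT5, KRT14 and KRT15 of basal cells were dim on all 4 arrays, as were the leukocyte genes PTPRC, CD3E, CD3D, CD14, LYZ and CD2, the fibroblast genes COL1A2, COL3A1, DCN, LUM, PDGFRA and PDGFRB, the endothelial genes PECAM1, CDH5, KDR, TEK and EMCN, and the kidney genes PAX2 and CDH16.

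TOP2B itself, measured by 1 probe set, was lower in knockdown cells in both pairs. Its level was 10.54 in sh-control and 10.09 in sh-TOP2B cells in vehicle, and 10.87 and 10.01 with DHT. The knockdown levels lay below both control levels, and the 2 differences were -0.45 and -0.86. The mean of -0.66 ± 0.10 (SE, 2 pairs; limma, adjusted p = 0.00145) corresponds to a 1.58-fold lower level. In these bulk samples, fewer cells with a strong knockdown and a weaker knockdown in every cell cannot be told apart. The call rests on the model: without the intensity trend the adjusted p was 0.337, without the treatment block 0.791, in the fit over 9 arrays 0.0932, and with arrays centred on control genes 1.0. The call was kept without the filter that leaves out genes of low mean level, and with a stricter one. It was also kept with the median over probe sets, with probe sets chosen on the 4 arrays and with quantile normalization. The fits that leave out an array have the form of the fit over 9 arrays, in which the call was already lost. With such fits the difference was -0.83 without the sh-control vehicle array, -0.78 without the sh-TOP2B vehicle array, -0.48 without the sh-control DHT array and -0.53 without the sh-TOP2B DHT array, with adjusted p from 0.189 to 0.860. TOP2A, the form of dividing cells, differed by -0.02 ± 0.12, and TOP1, which cuts a single strand, by 0.15 ± 0.06, and neither was called. TDP1 and TDP2, which remove topoisomerases stuck to DNA ends and were chosen after their values were seen, as were TOP3A and TOP1MT, differed by -0.13 and -0.02, and the latter by -0.32 and -0.34, and none of these was called.

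Far more genes rose than fell, and the rises were much larger. Of 11865 genes tested, 257 (2.17%) were called higher and 58 (0.489%) were called lower in knockdown cells, so that 81.6% of calls were rises. At an unadjusted p under 0.05 the split was closer to even, with 722 genes higher and 810 lower. Genes were tested if their mean level over all 9 arrays, the sh-TOP2B arrays included, passed a filter. Genes dim elsewhere could therefore be tested through their knockdown levels. Without the filter, 220 of 19775 genes were called higher and 12 lower. Called rises had a median of 0.89 and reached 5.82, whereas called falls lay between -0.23 and -0.86 with a median of -0.445. All 315 called genes had the same sign in both pairs, which the test favours, against 56.8% of all genes tested. The split held with quantile normalization over the 4 arrays, which called 267 genes higher and 61 lower. It did not hold with arrays centred on the median of 25 control genes, where 114 genes were called higher and 0 lower. This centring moved the median of all genes from -0.026 to -0.163 in the vehicle pair and from -0.022 to 0.29 in the DHT pair. Under that scaling all 257 rises were still higher in both pairs, and 48 of the 58 falls were still lower in both. The additive fit over all 9 arrays called 124 genes higher and 0 lower. With an array left out, the same fit over the other 8 called 37 genes higher without the sh-control vehicle array, 54 without the sh-TOP2B vehicle array, 33 without the sh-control DHT array and 58 without the sh-TOP2B DHT array, and called 0 lower in each case. Of 77 rises named here or by the naming rule, 16 were called in every fit run, with each array left out included: CCL5, RGS2, OASL, IFIT1, CXCL10, IFIT3, OAS1, MSMB, TFF1, CFB, IFIT2, GBP1, SAMD9, ISG20, DDX60 and ISG15.

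The pairs agreed closely for large rises and less for falls. A difference of at least 1, a 2-fold change, was reached by 132 genes in the vehicle pair and by 127 with DHT, and 100 genes (0.843% of those tested) reached it in both, 75.8% of the first list and 78.7% of the second. All of those 100 were also called. In the other direction 14 genes were at least 1 lower in vehicle and 8 with DHT, and 0 (0%) were so in both. With a lower limit of 0.5, 204 genes were higher in both pairs and 27 (0.228%) were lower in both, the latter 9.89% of those lower in vehicle and 11.3% of those lower with DHT. Across all genes the Pearson correlation between the 2 differences was 0.549, and across the 11765 genes left when the 100 were taken out it was 0.204. The 100 were picked for being higher in both pairs, so taking them out lowers the correlation by itself, and nothing is read from the drop. Genes are not independent replicates, and the correlation is given as a description.

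**Figure D1:**
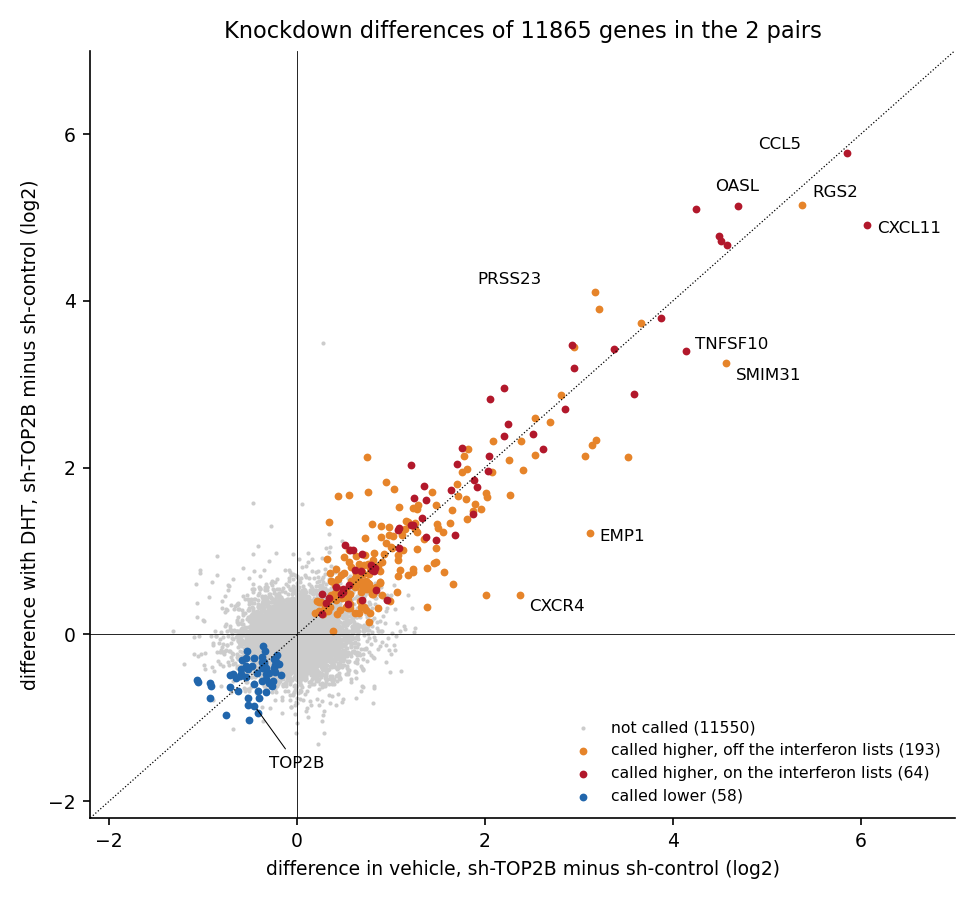
Each point is 1 of 11865 genes, placed by its log2 difference (sh-TOP2B minus sh-control) in vehicle (x axis) and with DHT (y axis), dim levels being replaced by the array median and the dotted line marking equal differences. Red and orange points are the 64 and 193 genes called higher on and off the interferon lists and lie along the line up to 5.82 in the mean, blue points are the 58 genes called lower and reach -0.86 in the mean, and grey points are not called.

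Genes of the antiviral interferon response formed the largest group. Of 100 interferon-stimulated effector genes tested, from a list of 127, 51 rose and 0 fell, where 2.17% and 0.489% of all genes tested did. The median difference of the list was 0.515 (0.502 with dim levels replaced) against -0.027 for all genes tested. Of these 100 genes, 34 were at least 2-fold higher in both pairs, against 0.843% of all genes tested. In the list 88 genes had a positive and 12 a negative mean difference, where the median of all genes tested was -0.027. The count of 51 was 29 without the intensity trend, 13 without the treatment block and 35 in the additive fit over 9 arrays. In that last fit it was 18 without the sh-control vehicle array, 21 without the sh-TOP2B vehicle array, 15 without the sh-control DHT array and 22 without the sh-TOP2B DHT array. Across this list and those of RNA and DNA sensors, of MHC class I genes and of interferons, cytokines and chemokines, 64 of 155 genes tested rose (41.3%, against 2.17% of all genes tested) and 0 fell.

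Genes for interferons themselves were measurable after knockdown. IFNB1, which encodes interferon beta, the first interferon made by epithelial cells that sense nucleic acids, was at 5.79 in sh-control and 7.35 in sh-TOP2B cells in vehicle, and at 5.56 and 7.15 with DHT. The difference was at least 1.51, and both knockdown levels lay above both control levels. IFNL1, an interferon of the lambda type that acts mainly on epithelia, was at 4.86 and 7.12 in vehicle and at 4.80 and 6.74 with DHT, a difference of at least 1.24. Both genes lay under the filter on low levels and were tested only in the fit without it, which called 220 of 19775 genes higher (1.11%), IFNB1 with an adjusted p of 0.00962 and IFNL1 with 0.0037. IFNL2, a close relative of IFNL1, was dim on all 4 arrays, at 3.64 and 5.34 in vehicle and at 3.66 and 5.49 with DHT, so no difference is given, although its adjusted p in that fit was 0.0073. IFNA1, IFNG and IFNE were also dim on all 4 arrays.

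CCL5 and CXCL11, chemokines that draw activated T cells, had the 2 largest rises of all genes tested when ranked with dim levels replaced. CCL5 was at 5.79 in sh-control and 11.64 in sh-TOP2B cells in vehicle and at 5.25 and 11.46 with DHT. The difference of at least 5.82, or 56.4-fold, was the largest by that ranking, and the 3 probe sets of the gene gave deposited differences from 4.50 to 6.03. CXCL11 was at 4.84 and 11.78 in vehicle and at 7.13 and 12.04 with DHT, at least 5.49 higher. CXCL10, which shares a receptor with CXCL11, was at 8.45 and 13.02 in vehicle and at 8.51 and 13.18 with DHT, 4.63 ± 0.08 higher (adjusted p = 1.561e-13). These control and knockdown levels did not overlap for any of the 3 genes. CXCL8, which attracts neutrophils and is driven by NF-kB more than by interferon, rose by 0.70 ± 0.14 (adjusted p = 0.0147). CXCL9, another ligand of that receptor that is mostly induced by interferon gamma, was dim on all 4 arrays with levels from 3.99 to 4.07. Of 13 members of the interferon, cytokine and chemokine list tested, 6 rose (46.2%, against 2.17% of all genes tested) and 0 fell, with a median of 0.371. The list has 33 members named by a probe set, and the others lay under the filter.

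Effectors that act on viral RNA led the list. OASL, a relative of the oligoadenylate synthetases that helps RNA sensing, was at 8.50 in sh-control and 13.20 in sh-TOP2B cells in vehicle and at 8.16 and 13.29 with DHT, 4.91 ± 0.10 higher (adjusted p = 3.356e-13). RSAD2 (viperin), which makes a nucleotide that stops viral polymerases, was at 8.52 and 12.77 in vehicle and at 7.33 and 12.43 with DHT. IFIT1, which binds RNA with a foreign cap, was at 8.94 and 13.43 in vehicle and at 8.55 and 13.32 with DHT. IFIT3, its partner, was at 8.39 and 12.90 in vehicle and at 8.04 and 12.77 with DHT. The last 3 rose by 4.67 ± 0.15, 4.63 ± 0.08 and 4.61 ± 0.09, and none of the 4 genes had overlapping control and knockdown levels. In knockdown cells 6 effectors in vehicle and 5 with DHT, OASL and IFIT1 among both, lay above the 99th percentile of genes on their array, and 0 did in either control. OAS1, which makes the messenger that activates RNase L, rose by 3.83 ± 0.13, and TNFSF10, the death ligand TRAIL, by 3.77 ± 0.17.

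**Figure D2:**
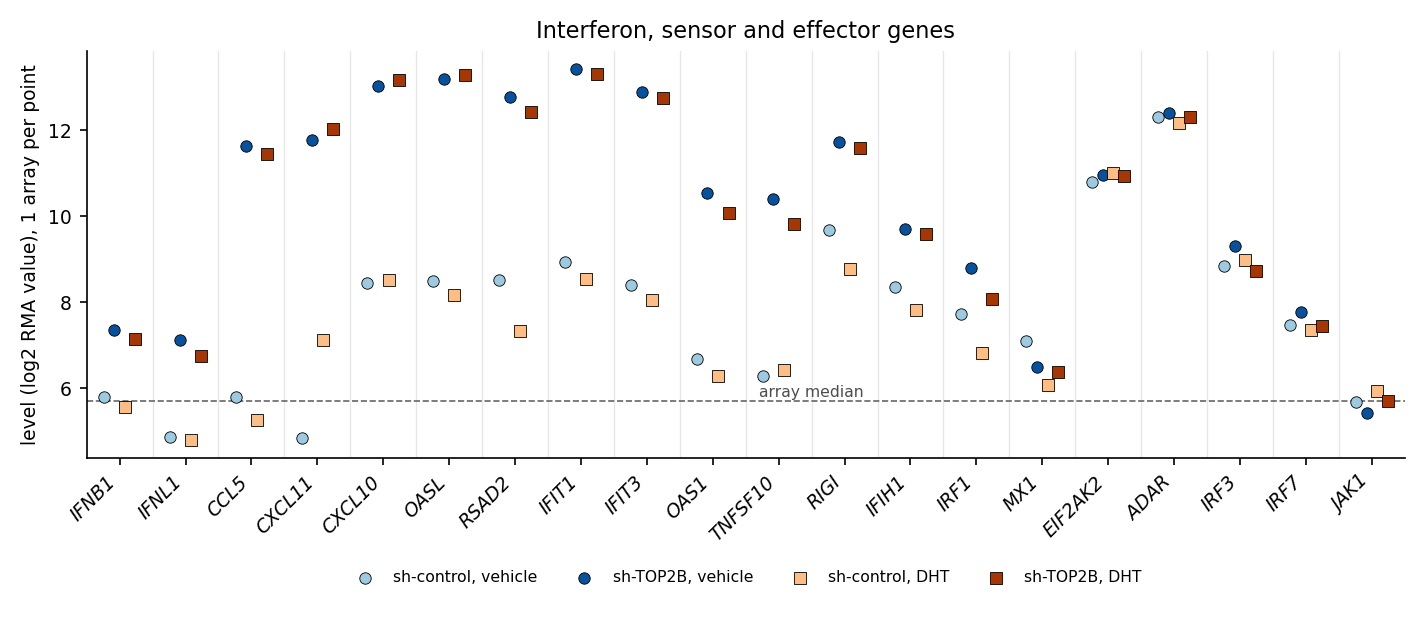
Points are log2 RMA values on the 4 arrays (1 point per array) for interferons, chemokines, effectors, sensors and factors named along the x axis, with circles for vehicle, squares for DHT, light colours for sh-control and dark colours for sh-TOP2B, and a dashed line at the mean of the array medians. From IFNB1 to IRF1 both dark points lie above both light points, whereas for MX1, EIF2AK2, ADAR, IRF3, IRF7 and JAK1 the colours mix or lie close together.

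The promoters of the genes that rose are shown because the interferon-stimulated response element (ISRE), to which IRF factors and the STAT complex bind, can be read in them directly. Sequences are from the RefSeq table for GRCh38.p14, on the strand of the gene, 5′ to 3′, with capitals where TTTC, any 2 bases and TTTC were found on either strand (a match on the other strand reads GAAA, any 2 bases and GAAA). The 250 bases upstream of the start site of IFIT1 (chr10:89392373-89392622, plus strand) hold it at positions -116 and -103, counted to the first base of the match. Those of CXCL10 (chr4:76023498-76023747, minus strand) hold it at -221. RGS2 (chr1:192808789-192809038, plus strand), which rose as much and is on no interferon list, is shown for contrast, and these letters are not in its window.
IFIT1: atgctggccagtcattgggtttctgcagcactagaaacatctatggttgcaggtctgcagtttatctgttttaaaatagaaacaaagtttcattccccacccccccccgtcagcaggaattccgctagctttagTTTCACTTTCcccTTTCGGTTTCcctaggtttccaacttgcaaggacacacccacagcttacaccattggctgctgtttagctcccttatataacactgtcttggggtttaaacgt
CXCL10: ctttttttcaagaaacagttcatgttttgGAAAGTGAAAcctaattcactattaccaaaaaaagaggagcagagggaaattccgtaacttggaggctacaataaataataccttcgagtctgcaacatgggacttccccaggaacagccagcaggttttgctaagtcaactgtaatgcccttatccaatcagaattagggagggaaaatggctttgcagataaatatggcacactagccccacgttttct
RGS2: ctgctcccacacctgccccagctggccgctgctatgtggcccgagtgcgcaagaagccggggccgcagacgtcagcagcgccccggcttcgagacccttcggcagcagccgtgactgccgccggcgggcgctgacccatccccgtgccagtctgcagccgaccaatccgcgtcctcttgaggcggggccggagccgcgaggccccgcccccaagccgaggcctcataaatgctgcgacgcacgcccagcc

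Among genes on the interferon lists with an entry in the promoter table, the next 8 by size of rise that hold the element are shown by 60 bases around it, to let the spacing and the flanks be compared. The windows are IFIT3 (chr10:89327833-89327892, plus strand), TNFSF10 (chr3:172523583-172523642, minus strand), CFB (chr6:31945930-31945989, plus strand), HERC5 (chr4:88456972-88457031, plus strand), GBP1 (chr1:89065301-89065360, minus strand), SAMD9 (chr7:93118081-93118140, minus strand), ISG20 (chr15:88638922-88638981, plus strand) and DDX60 (chr4:168318789-168318848, minus strand). In HERC5 a pair of matches overlaps, and DDX60 and IFIT3 each hold a pair of separate matches.
IFIT3: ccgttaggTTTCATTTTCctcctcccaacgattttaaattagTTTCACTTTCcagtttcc
TNFSF10: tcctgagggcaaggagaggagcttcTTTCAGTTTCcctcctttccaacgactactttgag
CFB: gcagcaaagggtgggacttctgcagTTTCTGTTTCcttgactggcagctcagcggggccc
HERC5: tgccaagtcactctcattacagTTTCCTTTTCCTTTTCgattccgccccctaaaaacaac
GBP1: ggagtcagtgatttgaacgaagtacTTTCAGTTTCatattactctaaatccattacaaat
SAMD9: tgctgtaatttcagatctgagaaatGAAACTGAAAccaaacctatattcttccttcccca
ISG20: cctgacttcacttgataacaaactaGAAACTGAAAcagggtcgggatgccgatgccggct
DDX60: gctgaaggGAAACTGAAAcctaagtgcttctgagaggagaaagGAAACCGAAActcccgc

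Over windows of 300 bases, from 250 before to 50 after the start site, the element was found in 3.65% of the 27305 promoters of the table and in 2.6% of the 9702 that match a gene tested. It was found in 26 of 39 matched promoters of effectors that rose (66.7%), and in 17 of 37 of effectors that were not called (45.9%). Among rises off the interferon lists it was found in 4 of 155 (2.58%), a share next to that of all genes tested, and among genes called lower in 3 of 50 (6%). A form of the NF-kB site, GGGA, any base and TTTCC on either strand, was found in 5 of 204 promoters of all genes called higher (2.45%) and in 0.629% of those of all genes tested. A match is a description of the letters and not a measured binding site. The windows of CXCL11, RSAD2 and OAS1 held no ISRE match, and that of IFNL1 held 2.

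Sensors and signalling factors moved less than the effectors, and only some of them were called. RIGI, which binds short double-stranded RNA with a free end, was at 9.68 in sh-control and 11.73 in sh-TOP2B cells in vehicle and at 8.77 and 11.59 with DHT, a rise of 2.44 ± 0.14 (adjusted p = 3.334e-08). IFIH1 (MDA5), which binds long double-stranded RNA, rose by 1.56 ± 0.13, and DHX58, which modulates both sensors, by at least 1.44. IRF9, the part of the STAT complex that reads the ISRE, rose by 1.36 ± 0.17. Of 26 genes of this list tested, 6 rose (23.1%, against 2.17% of all genes tested) and 0 fell, with a median of 0.157. The other 2 of the 6, named after their values were seen, were IRF1, a factor induced by interferon and NF-kB, at 1.18 ± 0.15, and JAK2, a kinase of cytokine receptors, at 0.79 ± 0.15.

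Other members of the pathway, also chosen after their values were seen, were not called. IRF3, which is present before infection and is switched on by phosphorylation, differed by 0.46 in vehicle and -0.27 with DHT. IRF7, which interferon usually induces, differed by 0.21 ± 0.17, TLR3, an RNA sensor of endosomes, by 0.28 ± 0.13, and MAVS, the adaptor of RIGI and IFIH1, by 0.23 ± 0.13. JAK1, a kinase that the receptors of interferons alpha, beta, gamma and lambda all use, was at 5.67 and 5.42 in vehicle and at 5.93 and 5.71 with DHT, dim on 3 of the 4 arrays. The other kinase and the chains of the interferon alpha and beta receptor were well above the array median: TYK2 lay between 8.12 and 8.29, IFNAR1 between 9.79 and 10.20, and IFNAR2 between 8.15 and 8.55.

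The effectors differed widely among themselves, and 49 of the 100 tested were not called. Genes below the largest rises, named after their values were seen, include ISG15, a ubiquitin-like protein that is joined to other proteins, which was at 10.89 and 13.13 in vehicle and at 10.55 and 13.07 with DHT, a rise of 2.38 ± 0.07. IFIT2 rose by 3.20 ± 0.10, HERC5, which attaches ISG15, by 3.23 ± 0.13, CFB, a complement factor, by 3.40 ± 0.10, and the guanylate-binding protein GBP1 by at least 3.07. The membrane proteins IFITM1 and BST2, which block entry and release of viruses, rose by 2.29 ± 0.14 and 2.00 ± 0.17, whereas IFITM2 and IFITM3, already at 11.62 or above on every array, differed by 0.09 and 0.22 and were not called. MX1, a GTPase that traps viral particles and one of the genes most used to read interferon action, was at 7.09 in sh-control and 6.48 in sh-TOP2B cells in vehicle and at 6.08 and 6.38 with DHT, and was not called. EIF2AK2 (PKR), a kinase that halts translation, differed by 0.04 ± 0.08 and ADAR, which edits double-stranded RNA, by 0.12 ± 0.06, and neither was called. USP18, which removes ISG15 and damps the receptor, differed by 0.39 ± 0.13 (adjusted p = 0.201). Mean differences in the list ranged from -0.40 to 4.91.

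Antigen presentation moved little beside these. Of 20 genes of the MHC class I list tested, 2 rose (10%, against 2.17% of all genes tested) and 0 fell, with a median of 0.272 (0.229 with dim levels replaced). PSMB9, a subunit of the immunoproteasome, was at 9.33 and 9.93 in vehicle and at 8.02 and 9.03 with DHT, a rise of 0.80 ± 0.13, and its control level in vehicle lay above its knockdown level with DHT. HLA-B, a presenting chain, rose by 0.34 ± 0.06 (adjusted p = 0.00868). The peptide transporter TAP1 and the light chain B2M, chosen after their values were seen, differed by 0.24 and 0.08 and were not called.

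NF-kB targets rose in part and by less than 2-fold. Of 15 tested, 5 rose (33.3%, against 2.17% of all genes tested) and 0 fell, with a median of 0.163 against -0.027. LCN2, an iron-binding secreted protein, was at 10.00 in sh-control and 10.66 in sh-TOP2B cells in vehicle and at 9.77 and 10.61 with DHT, a rise of 0.75 ± 0.09 (adjusted p = 0.000129). TNIP1 and TNFAIP3, which both end NF-kB signalling, rose by 0.71 ± 0.07 and 0.66 ± 0.11, and NFKBIZ, a nuclear cofactor of NF-kB, by 0.65 ± 0.10. Of 19 immediate early genes tested, 4 rose (21.1%) and 0 fell. KLF4, a zinc finger factor of epithelia, was at 8.58 and 10.84 in vehicle and at 9.08 and 11.17 with DHT, a rise of 2.17 ± 0.10 (adjusted p = 2.78e-09). ATF3, a stress factor, rose by 1.02 ± 0.10 and EGR1, a factor induced by growth signals, by 0.60 ± 0.08, while FOS was called on levels of which 3 of 4 were dim, so its size is only bounded.

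Many of the rises lay outside the interferon lists. These lists do not hold every related gene: the chemokine CCL22 and the class II chain HLA-DRA, both called higher, are on none of them. Of the 257 called rises, 193 were on none of the 4 lists, which is 1.65% of the 11710 genes tested off them against 41.3% of the 155 on them, and of the 100 genes at least 2-fold higher in both pairs 59 were not. RGS2, a GTPase activator that shortens signals from Gq-coupled receptors, was at 4.84 in sh-control and 11.08 in sh-TOP2B cells in vehicle and at 5.54 and 10.84 with DHT. Both control levels were dim, and the rise of at least 5.26, or 38.3-fold, was the third largest of all genes. RGS2 could pass the filter on level through its knockdown arrays. SMIM31, a small membrane protein, was at 5.96 and 10.53 in vehicle and at 6.74 and 9.99 with DHT, 3.91 ± 0.22 higher. Knockdown and control levels of both genes were far apart. For SMIM31 the difference was larger in vehicle, while for RGS2 each pair gives only a lower bound and the pairs cannot be ordered.

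MSMB, PRSS23, TFF1 and CP, all among the 12 largest of these rises, encode secreted proteins. MSMB, microseminoprotein beta, a main protein of prostatic fluid, was at 6.93 in sh-control and 10.60 in sh-TOP2B cells in vehicle and at 7.02 and 10.75 with DHT, a rise of 3.70 ± 0.12 (adjusted p = 9.301e-11). PRSS23, a secreted serine protease, was at 7.80 and 10.97 in vehicle and at 6.74 and 10.85 with DHT. TFF1, a trefoil peptide of mucous epithelia, was at 6.48 and 9.70 in vehicle and at 6.08 and 9.98 with DHT. CP, ceruloplasmin, the copper carrier of plasma, was at 8.08 and 11.02 in vehicle and at 7.15 and 10.60 with DHT. In each of these 4 genes both knockdown levels exceeded both control levels. NPTX1, a secreted pentraxin, and CCN3, a matrix-associated growth regulator that androgen is known to repress, were dim in both controls and rose by at least 2.82 and 2.76.

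Of the remaining genes of this group, P2RX7, a channel opened by extracellular ATP, was at 6.93 and 9.74 in vehicle and at 6.32 and 9.19 with DHT, 2.84 ± 0.14 higher. GDPD3, a phospholipase of the D type, rose by at least 2.70, SLC2A13, a proton-coupled inositol transporter, by at least 2.62, and ZBTB7C, a zinc finger protein, by at least 2.60. The 5 probe sets of SLC2A13 gave deposited differences from 3.03 to 3.99 where they were not dim throughout, and the 2 of CCN3 gave 1.27 and 3.32.

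**Figure D3:**
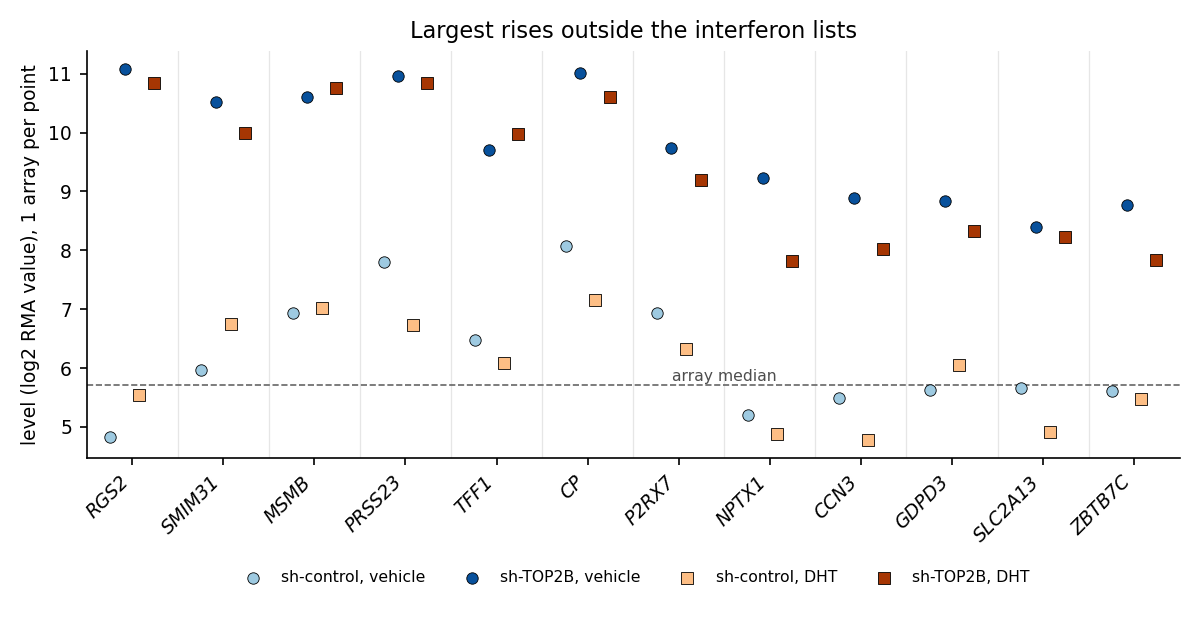
Points are log2 RMA values on the 4 arrays (1 point per array) for the 12 largest called rises on none of the 4 interferon lists, with circles for vehicle, squares for DHT, light colours for sh-control, dark colours for sh-TOP2B and a dashed line at the mean of the array medians. For all 12 genes both dark points lie above both light points, and RGS2, NPTX1, CCN3, SLC2A13 and ZBTB7C lie under the line in both controls.

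The falls were small, and no gene fell by 2-fold in both pairs. TMOD2, which caps the slow end of actin filaments, had the largest: it was at 7.62 in sh-control and 6.86 in sh-TOP2B cells in vehicle and at 7.71 and 6.74 with DHT, -0.86 ± 0.18 (adjusted p = 0.0176). INSL3, a hormone of the relaxin family, was at 7.14 and 6.22 in vehicle and at 7.22 and 6.45 with DHT. PPIL6, a member of the cyclophilin family, was at 7.68 and 6.63 in vehicle and at 8.30 and 7.73 with DHT, so that its knockdown level with DHT exceeded its control level in vehicle. ASRGL1, an asparaginase that also clears isoaspartyl peptides, was at 6.88 and 5.81 in vehicle and at 8.06 and 7.52 with DHT, and its levels overlapped in the same way. NANOS1, an RNA-binding repressor, was at 7.93 and 7.42 in vehicle and at 7.68 and 6.64 with DHT. ZNF254, a zinc finger protein, was at 8.28 and 7.36 in vehicle and at 8.17 and 7.54 with DHT. Besides TOP2B, the groups did not overlap for TMOD2, INSL3, NANOS1 and ZNF254, while the DHT level set part of the order in PPIL6 and ASRGL1. These genes were picked as the largest called falls, which favours such separation.

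The other falls among the 12 were of similar size. PRKAR1B, a regulatory subunit of protein kinase A, differed by -0.76 ± 0.17, ABHD18 -0.68 ± 0.15, ZNF273 -0.68 ± 0.15, DNAJC6 (auxilin), which strips clathrin from vesicles, -0.67 ± 0.14, and ANXA9, an annexin, -0.65 ± 0.12. Adjusted p over the 12 ran from 0.00145 for TOP2B to 0.0482 for ASRGL1. Probe sets of a gene did not always agree: the 4 of ZNF254 gave differences from -0.77 to 0.20, the 2 of ASRGL1 -0.81 and -0.08, and the 2 of ANXA9 -0.65 and 0.01. None of the 58 falls was on an interferon list, but the 4 lists hold only 155 of the 11865 genes tested. Nothing is read from this count. All of the calls of falls depend on the model, since 0 of the 58 remained called without the intensity trend, without the treatment block, in the fit over 9 arrays or with arrays centred on control genes. Outside the filter, the antisense transcript IL10RB-DT was the 1 gene at least 2-fold lower in both pairs, at 6.82 in sh-control and 5.47 in sh-TOP2B cells in vehicle and at 7.30 and 6.20 with DHT.

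**Figure D4:**
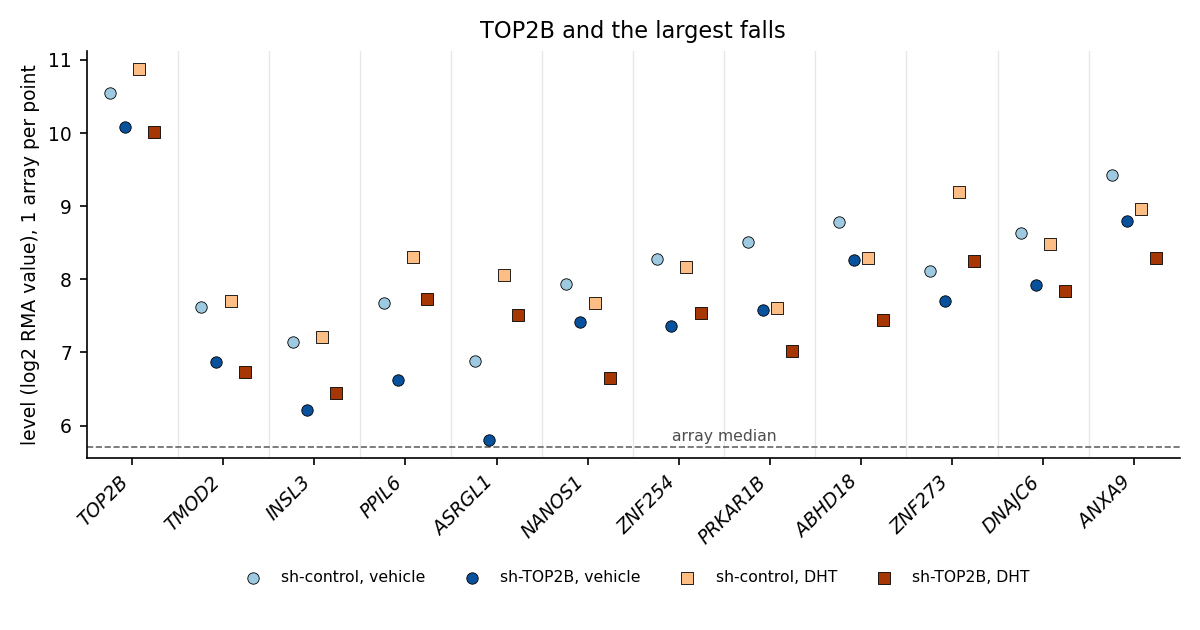
Points are log2 RMA values on the 4 arrays (1 point per array) for TOP2B and the other 11 largest called falls, with circles for vehicle, squares for DHT, light colours for sh-control, dark colours for sh-TOP2B and a dashed line at the mean of the array medians. Within each treatment the dark point lies under the light point for all 12 genes, by 0.42 to 1.07, but in PPIL6, ASRGL1 and ZNF273 a control point lies below a knockdown point of the other treatment.

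The androgen response, in which TOP2B has a known part, showed 1 call among its induced genes. Of 41 androgen-induced genes tested, 0 rose and 1 fell, where 2.17% and 0.489% of all genes tested did, with a median of -0.044. KLK3, which encodes prostate-specific antigen, was at 8.72 in sh-control and 8.88 in sh-TOP2B cells in vehicle and at 13.80 and 13.76 with DHT. KLK2, its neighbour and close relative, was dim in vehicle in both and at 12.21 and 12.20 with DHT. TMPRSS2, an androgen-induced protease, was at 9.28 and 9.14 in vehicle and at 11.71 and 11.68 with DHT, and FKBP5, a chaperone of steroid receptors, at 11.10 and 11.13 in vehicle and at 13.20 and 13.16 with DHT. For these 4 genes the levels with DHT stood far above those in vehicle, and on the probe set used knockdown and control differed by at most 0.16. Other probe sets of TMPRSS2 differed more: the 3 not dim throughout gave mean differences from -0.69 to -0.08. Those of KLK3, KLK2 and FKBP5 lay between -0.13 and 0.10. EAF2, an elongation factor partner that androgen induces, was the gene that fell: it was at 7.95 and 7.68 in vehicle and at 11.95 and 11.33 with DHT, -0.44 ± 0.11 (adjusted p = 0.0482). It was lower within both pairs. In additive fits over 8 arrays its difference was 0.27 without the sh-TOP2B vehicle array and 0.54 without the sh-control DHT array, but those fits stand in for the missing array with a DHT effect shared with untransfected cells, where EAF2 was at 5.99 in vehicle and 6.43 with DHT. Of 21 androgen-repressed genes, 1 rose (CCN3) and 0 fell, and the lists of luminal identity genes and androgen receptor coregulators had 0 calls among 16 and 19 tested.

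Stress lists moved by single genes rather than as a whole. Of 31 genes of the integrated stress response tested, 4 rose (12.9%, against 2.17% of all genes tested) and 0 fell, with a median of -0.03 against -0.027. NUPR1, a small chromatin protein induced by stress, was at 11.31 in sh-control and 12.57 in sh-TOP2B cells in vehicle and at 11.12 and 12.45 with DHT, a rise of 1.30 ± 0.06 (adjusted p = 7.091e-09). CEBPB, a factor of inflammation and stress, rose by 0.89 ± 0.09, ATF3 as above, and GDF15, a secreted stress hormone, by 0.61 ± 0.14. Of 33 p53 targets tested, 4 rose (12.1%) and 0 fell, with a median of 0.026. GADD45A, which slows the cell cycle after damage, was at 9.19 and 9.52 in vehicle and at 8.48 and 9.82 with DHT, and its rise of 0.84 ± 0.17 was mostly that of the DHT pair. FAS, a death receptor, rose by 0.78 ± 0.16, and PMAIP1 (NOXA), which antagonises MCL1, by 0.43 ± 0.08. GDF15 is the other of the 4 and is shared between the lists.

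The DNA damage and growth lists had between 0 and 3 calls each, where 2.17% of all genes tested were called higher and 0.489% lower. Of 27 break repair and checkpoint genes tested, 1 rose: CHEK2, a checkpoint kinase, was at 8.39 and 9.87 in vehicle and at 8.76 and 9.80 with DHT, a rise of 1.26 ± 0.13 (adjusted p = 1.796e-05). The lists of DNA replication (39 tested, median -0.096), mitosis (32, median -0.051) and replication-dependent histones (9, median 0.035) had 0 calls in either direction. Among 28 apoptosis regulators, PMAIP1 and MCL1 rose, the latter by 0.26 ± 0.06, and CYCS, cytochrome c, fell by 0.23 ± 0.05. The 6 probe sets of MCL1 gave differences from -0.11 to 0.29. Long genes are of interest because topoisomerases act during elongation, and of 25 very long genes tested 1 rose, EXT1, a heparan sulfate polymerase, by 1.21 ± 0.13, and 0 fell, with a median of -0.039.

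Calls in the other lists numbered 1 or 2 each, and nothing is read from such counts against the shares of all genes. CRYAB, a small heat shock protein, rose by 0.94 ± 0.18, and XBP1, a factor of the unfolded protein response, by 0.38 ± 0.08, each as the 1 call of its list. FN1, fibronectin, rose by 0.44 ± 0.08 and ITGA6, a laminin receptor subunit, fell by 0.51 ± 0.12 in the adhesion list, and JARID2, a polycomb cofactor, rose by 0.34 ± 0.08. Probe sets not dim throughout gave differences from -0.04 to 0.44 for FN1 and from -0.51 to -0.08 for ITGA6. The lists of sterol and fatty acid synthesis, small RNA machinery, neuronal and neuroendocrine genes, hypoxia and glycolysis, cytosolic ribosomal proteins and nuclear oxidative phosphorylation had 0 calls in either direction. Medians of these 6 lists lay between -0.03 and 0.025, next to -0.027 for all genes tested.

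**Figure D5:**
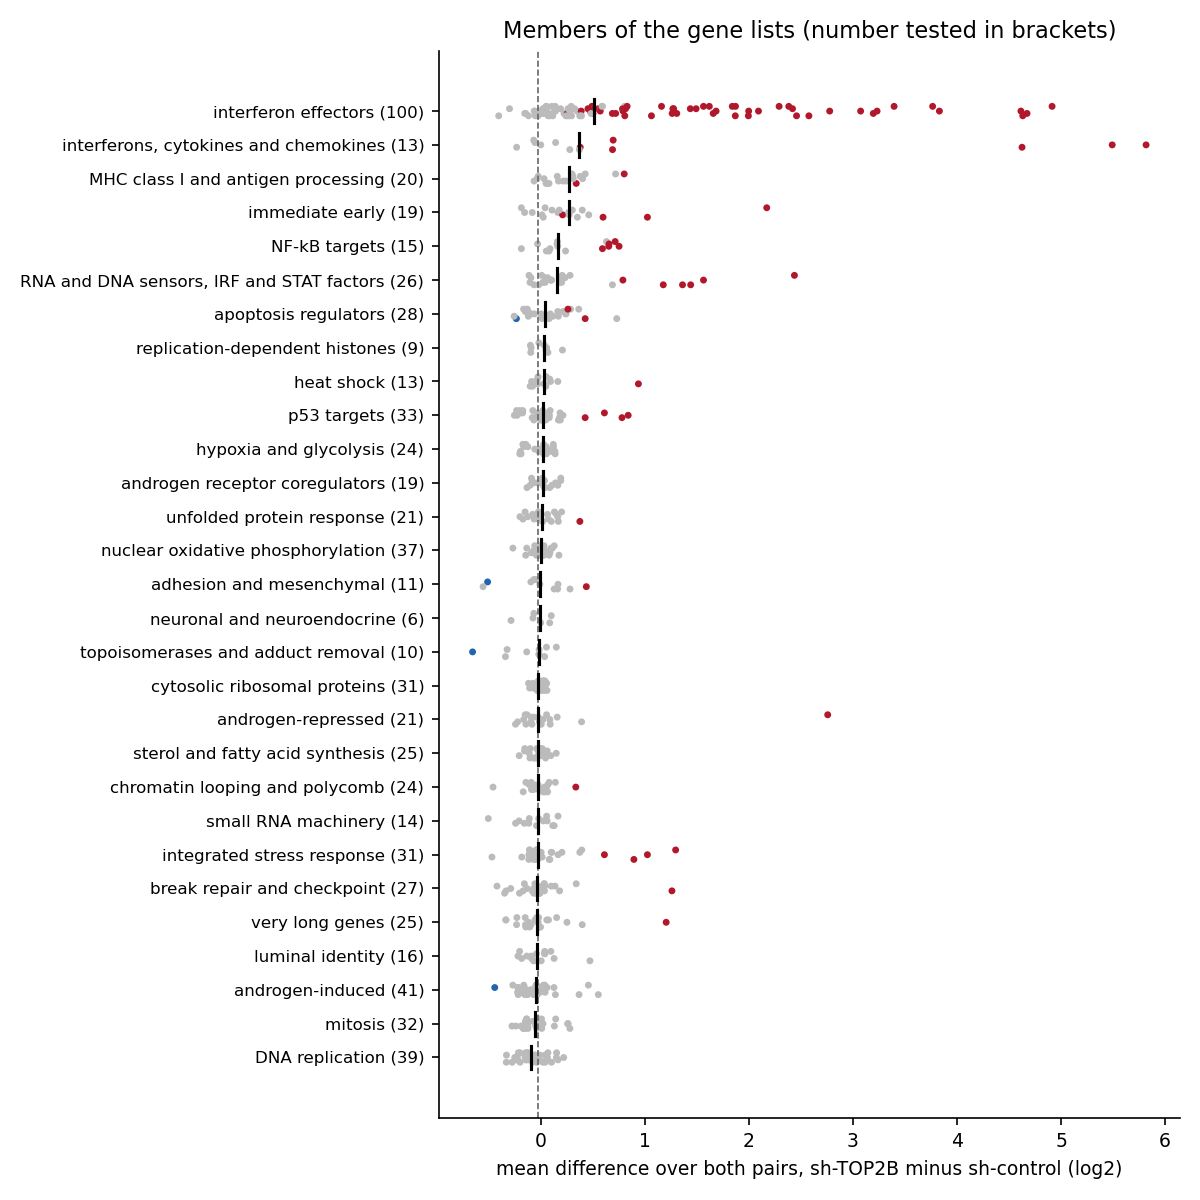
Each point is a tested member of a gene list, placed by its log2 difference (sh-TOP2B minus sh-control, mean over both pairs, dim levels replaced by the array median), red where called higher, blue where called lower and grey where not called, with a black bar at the median of the deposited differences of each list and a dashed line at the median of all genes tested. The interferon effectors, with 51 of 100 called and a median of 0.515, and the chemokine list, reaching 5.82, extend far to the right, whereas most other lists stay near the dashed line.

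The response of knockdown cells to DHT was also compared with that of other cells. A limma fit over 6 arrays, the 4 described and the untransfected vehicle and DHT arrays, set the DHT minus vehicle difference of sh-TOP2B cells against the mean of those of sh-control and untransfected cells, which is not the difference between the 2 pairs alone. In it 0 (0%) of 11865 genes passed the test, 213 had an unadjusted p under 0.05, and the smallest adjusted p was 0.9999. The fit has 1 residual degree of freedom, so the absence of calls does not show that the responses were alike. The difference between the pairs alone has no test here. Some genes with large gaps between the pairs, chosen after their values were seen, were CXCR4, the receptor of CXCL12, at 9.34 and 11.71 in vehicle but 11.10 and 11.58 with DHT, and EMP1, an epithelial membrane protein, at 5.51 and 8.83 in vehicle but 8.10 and 9.31 with DHT. For CXCR4 the knockdown difference was 2.37 in vehicle and 0.48 with DHT, while the 6-array fit gave -0.82 for its own comparison. In both genes the sh-control level was higher with DHT, and the knockdown levels differed less between treatments than the control levels. SCNN1G, a subunit of the epithelial sodium channel, went the other way, at 6.08 and 6.36 in vehicle but 4.16 and 9.18 with DHT, and was not called in the mean (adjusted p = 0.063).

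The genes that moved with knockdown were looked up on the arrays of untransfected cells given etoposide, which traps topoisomerase II on cut DNA, or merbarone, which blocks its cycle, each at 100 µM from 2 h before DHT and against the same array of DHT alone. Of the 100 genes at least 2-fold higher with knockdown, 2 were at least 2-fold higher and 7 lower with etoposide, where 0.59% and 1.21% of all genes tested were. With merbarone 18 were higher and 16 lower, where 6.73% and 6.98% of all genes tested were. Each of these comparisons rests on 1 array against 1, with no test. Dim levels were replaced by the array median, so a gene dim with DHT alone, such as RGS2, could not count as lower. Of the 41 of these genes on the interferon lists, 10 were higher and 6 lower with merbarone. With etoposide 1 was higher and 5 were lower. As examples picked from the largest rises, IFIT1, 4.63 higher with knockdown, differed by -1.29 with etoposide and -1.34 with merbarone. TNFSF10, 3.77 higher with knockdown, differed by -0.36 and -3.80. Others of the largest rises were higher with merbarone, among them RSAD2 by 1.60 and CXCL11 by 1.17. GBP1 and IRF1, chosen after their values were seen, were 4.09 and 3.50 higher with merbarone, and 0.39 and 0.10 higher with etoposide. Of the 58 genes that fell, 0 moved 2-fold with etoposide, and 4 were higher and 4 lower with merbarone.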

How the data were processed

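Expression was measured on 9 Affymetrix U133 Plus 2.0 arrays with 54675 probe sets, 1 array per group, and 4 of them are described here. The deposited values are on a log2 scale, and RMA is named per the submitters' processing notes, with its version not given in the sources used here; whether both series of arrays were normalized together is not stated. RMA makes array distributions alike, so a shift shared by most genes is removed before the values are written. Arrays carry no counts, and their number limits the precision.

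Probe sets were named from the platform annotation: 41097 had 1 symbol, 1801 several and 11777 none. Of those with 1 symbol, 41043 matched RefSeq and 0 symbols were updated. For each of 19775 genes the probe set brightest in the mean of the 9 arrays was kept, and genes under the 40th percentile of mean level were left out, which left 11865. That mean includes the sh-TOP2B arrays, so a gene dim in other cells could pass through its knockdown levels. Paralogs can share probes, so values of close relatives such as KLK2 and KLK3, HLA genes and IFITM genes are uncertain as to the member.

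The deposited log2 values of the 4 arrays were fitted in R 4.3.3 with limma 3.58.1, with a knockdown term, treatment as a block and an intensity trend, two-sided, with Benjamini-Hochberg adjustment at 0.05. The fit had 1 residual and 12.43 prior degrees of freedom. Fits that leave out an array are additive fits over the other 8 arrays. On simulated data of 11865 genes, 93 of 100 genes changed by 1 and 100 of 100 changed by 2 were recovered, with 16 false calls among the unchanged genes. The simulated noise had the spread that the model assumes and no DHT effect. The recovery therefore cannot test whether that spread holds for the real arrays.

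The comparison, its gene lists and the naming rule were chosen with earlier results of these data known. The rule named the 12 largest called rises and falls, the 12 largest rises off the interferon lists, up to 4 called members per list, or up to 2 where none was called, and TOP2B, TOP2A, TOP1, KLK3, KLK2, TMPRSS2 and FKBP5 among a fixed set. Some genes are not reported here. Alternatives were the trend, the filter, the choice of probe set, the block, the arrays fitted, the scaling and each array or pair left out.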

Additional observations from a re-analysis of the deposited data

How the results depend on the processing

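The named rises kept their direction under every alternative run, and the number of rises depended on the spread that the model assumed. The 257 genes called higher became 78 without the intensity trend, 20 without the treatment block, 124 in the additive fit over 9 arrays and 114 with arrays centred on control genes, and between 33 and 58 when that additive fit was run with an array left out. Leaving out an array changes both the fit and the arrays, and its values are to be read against the fit over 9 arrays. With quantile normalization over the 4 arrays, 267 genes were called higher and 61 lower. The 58 called lower became 0 without the trend, without the block, over 9 arrays, with centring and with any array left out, 12 without the filter and 142 with a filter at the 60th percentile. The 100 genes 2-fold higher in both pairs became 57 with the stricter filter, 204 at a limit of 0.5, and 127 to 132 with a single pair. The 0 genes 2-fold lower became 1 without the filter, 1 with probe sets chosen on the 4 arrays, 27 at a limit of 0.5, and 8 to 14 with a single pair. The TOP2B difference was -0.66 without the trend, without the block and over 9 arrays and -0.57 with centring, and its call was lost in these 4 fits. The call of TOP2B was kept without the filter, with the stricter filter, with either other choice of probe sets and with quantile normalization. With an array or a pair left out its difference lay from -0.86 to -0.45. The 51 effectors called became 29 without the trend, 13 without the block, 35 over 9 arrays and 34 with centring, and 15 to 22 with an array left out. EAF2 lay between -1.42 and 0.54 with an array left out, and reversed to 0.27 without the sh-TOP2B vehicle array and to 0.54 without the sh-control DHT array, where the DHT effect is shared with untransfected cells, and EIF4G2 to 0.48 with the median over probe sets. Of the 77 rises named here or by the naming rule, 35 lost their call without the trend, 59 without the block, 19 over 9 arrays and 23 with centring, and 28 to 39 kept it with an array left out. Of 20 such falls other than TOP2B, all 20 lost it under each of these 4 settings and with any array left out. The cause of these losses was not tested. The treatment block in the fit is the pairing of the arrays, and the unpaired fit called 20 genes higher and 0 lower. With 1 array per group, a dim gene has only a bounded difference, and no spread within a group could be measured.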

Other observations

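Genes outside the interferon and stress lists, chosen after their values were seen, extend the description of what rose. SLPI, a protease inhibitor, was at 8.75 in sh-control and 10.47 in sh-TOP2B cells in vehicle and at 8.93 and 10.59 with DHT, a rise of 1.69 ± 0.10, and PI3 (elafin), another inhibitor, rose by 1.60 ± 0.11. S100P, a calcium-binding protein of epithelial tumours, was at 10.64 and 12.41 in vehicle and at 10.59 and 12.73 with DHT, a rise of 1.96 ± 0.08 (adjusted p = 1.607e-09). The complement component C3 was dim in both controls and rose by at least 2.01. ULBP2, a ligand of the killer cell receptor NKG2D, rose by 1.85 ± 0.09, and HLA-DRA, a class II chain, by 1.10 ± 0.20. PLAUR, the urokinase receptor, rose by 2.20 ± 0.18. CCL22, which draws regulatory T cells, was at 5.96 and 8.50 in vehicle and at 5.88 and 8.03 with DHT, a rise of 2.34 ± 0.19.

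Regulators of growth and fate moved as single genes. CDKN2B, an inhibitor of cyclin D kinases, was at 7.83 in sh-control and 9.48 in sh-TOP2B cells in vehicle and at 8.07 and 9.56 with DHT, a rise of 1.57 ± 0.12, and MXD1, which competes with MYC for its partner, rose by 1.67 ± 0.10. SFN (14-3-3 sigma), an epithelial protein that p53 can induce, rose by 1.17 ± 0.15, and ZFP36L2, which marks messenger RNAs for decay, by 1.48 ± 0.09. The 3 probe sets of ZFP36L2 that were not dim throughout gave differences from 0.08 to 1.48. SOX9, a factor of epithelial progenitors, was at 7.73 and 9.38 in vehicle and at 8.70 and 9.31 with DHT. STS, which frees steroids from their sulfates, rose by 1.31 ± 0.12. Among falls, TGFBR1, the signalling receptor of TGF-beta, was at 10.67 and 10.12 in vehicle and at 10.73 and 10.34 with DHT, -0.47 ± 0.09 (adjusted p = 0.00734), and SMURF2, a ligase that acts on that receptor, differed by -0.47 ± 0.09. HIF1A, the oxygen-sensing factor, fell by 0.27 ± 0.06, MAD2L1, a spindle checkpoint protein, by 0.37 ± 0.08, and the translation factors EIF3B and EIF4G2 by 0.37 ± 0.08 and 0.25 ± 0.06, all falls that share the dependence on the model given above. The 2 probe sets of EIF4G2 that were not dim throughout gave differences from -0.25 to 0.48, and the 6 of EIF3B from -0.37 to 0.10.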
